A study of Homo sapiens with 80 samples.

Results

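The end of a cardiomyocyte differentiation was examined in 6 wells of the human induced pluripotent stem cell line WTC11, an established line, collected on day 16. The wells were those of the multi-omic collection labelled day 16, 3 of high and 3 of low purity, and they make up 6 of the 80 libraries of the series. The high purity wells came from 1 differentiation started at passage 52 and the low purity wells from 1 differentiation started at passage 69. Both received CHIR99021, which activates WNT signalling by inhibiting GSK3, on day 0 at a dose that the labels give only as 6 to 12 µM, then 5 µM IWP2, which blocks the secretion of WNT ligands, on day 2. Both were kept in B27 medium without insulin until day 6 and with insulin from then on. Purity, meaning the share of cells that stained for cardiac troponin T, was scored by flow cytometry once a differentiation was complete, and no cells were sorted, so each library held the RNA of a whole well. The question is which cells other than cardiomyocytes the RNA of the low purity wells pointed to.

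Cells driven to mesoderm by WNT activation and then deprived of WNT can become cardiomyocytes, which build sarcomeres, the repeating units of actin and myosin that contract. Related mesoderm can also give epicardium, the outer layer of the heart, whose cells are known to turn into fibroblasts and smooth muscle after losing their epithelial contacts. Endothelium, endoderm and amnion-like epithelium are further known by-products of such cultures, and each has marker genes by which its RNA can be recognised in a mixed well.

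The low purity wells held far more RNA of stromal, matrix and smooth muscle genes than the high purity wells, and less RNA of most sarcomere genes. WT1, TBX18 and BNC1 of epicardium were also far higher in low purity, but the summed RNA of all epicardial genes listed overlapped between the classes. A level of 1 TPM in 3 or more of the 6 wells was reached by 18671 genes, and of these limma called 3118 as different between the classes, which is 16.7% of those tested. TPM is a length-corrected share of a library's transcripts, scaled to the same total in each library. A gene was called when its limma adjusted p was under 0.05 and its log2 fold change, on the scale of log2(TMM-scaled TPM + 1) and always given as high minus low, was at least 1 in size. Called higher in high purity were 1296 genes, 6.94% of those tested, and called higher in low purity were 1822 genes, 9.76% of those tested. The split depends on the scaling, since high purity held the higher level in 41.6% of the calls with TMM and in 27.5% of 3318 calls with unscaled TPM, where the median of all genes moved by -0.19. For 10916 genes, 58.5% of those tested, the 2 classes held separate ranges of wells.

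The libraries of the classes were alike in depth and unlike in RNA composition. Reads recovered per well ran from 9700005 to 15710733, with means of 12796479 in high and 12869911 in low purity (exact permutation test, two-sided, p = 1). Ribosomal and transfer RNA of mitochondria took 27.2% to 34.4% of TPM in the high purity wells and 23.3% to 24.6% in the low purity wells. The small nuclear RNA RN7SK took 11.5% to 14.6% and 9.48% to 10.0%. For each of these shares the exact permutation p was 0.1, two-sided, the smallest that 3 wells against 3 can give. Their part in the differences was not tested. Wells are repeats within 1 differentiation, so every p-value here measures the spread between wells, and purity, passage and differentiation cannot be told apart. Every well correlated best with wells of its own class, at 0.9685 or more within a group and at most 0.932 across classes (Pearson's r across genes, on the log scale).

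TNNT2, which encodes cardiac troponin T, checked the labels. It lies on chromosome 1 from 201359014 to 201377680 (RefSeq, GRCh38.p14, as for all positions here). It was at 3702, 3555 and 2867 TPM in the high purity wells and at 827, 1165 and 1227 TPM in the low purity wells. Each high purity well lay above every low purity well, a difference of 1.88 ± 0.19 (standard error) on the log2 scale with an adjusted p of 0.000328 by limma. The two-sided exact permutation p over wells was 0.1, again the smallest possible. In RNA of whole wells, fewer cardiomyocytes and less of a transcript per cardiomyocyte cannot be told apart, here or for any gene below.

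Sarcomere genes did not differ to the same degree. All 20 genes of the list were measured: 13 were called higher in high purity, 0 were called higher in low purity and 7 were not called. The median log2 fold change of the list was 1.19, against -0.01 over all genes tested. MYH6, the alpha myosin heavy chain of atrial and early ventricular muscle on chromosome 14 (23381987 to 23408273), stood furthest apart. It was at 4595, 3798 and 3580 TPM in high purity and at 307, 416 and 352 TPM in low purity, which is 3.69 ± 0.17 on the log2 scale (limma adjusted p 1.63e-05). The wells of the classes were far from overlapping. ACTN2, the alpha-actinin of the Z-disc, was at 845, 965 and 846 TPM against 165, 316 and 283 TPM (2.06 ± 0.24, limma adjusted p 0.000586). LDB3 (1.90), NEBL (1.84), TTN (1.61) and MYBPC3 (1.60), which hold the Z-disc, the thin filament and the thick filament in place, were also called higher in high purity. So were TNNI1 (1.71), MYL3 (1.33), TCAP (1.24), TNNC1 (1.14), TNNI3 (1.10) and MYOM1 (1.03).

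Other contractile genes were not called, among them some of the most abundant. MYL7, the atrial regulatory light chain and a general marker of young cardiomyocytes, was at 2086, 2058 and 1865 TPM in high purity and at 1757, 2233 and 2103 TPM in low purity, so its wells overlapped (0.21 ± 0.13, limma adjusted p 0.228). The beta myosin heavy chain MYH7 overlapped too, at 646, 821 and 669 TPM against 528, 1186 and 961 TPM (-0.04 ± 0.29, limma adjusted p 0.928). ACTC1, cardiac alpha-actin, was at 1688, 1667 and 1781 TPM against 1170, 1633 and 1375 TPM and missed the fold threshold (0.53 ± 0.14, limma adjusted p 0.0219). MYL2 (-0.36), CSRP3 (0.52), MYOZ2 (0.72) and MYL4 (0.91) were the other members not called. MYH6 and MYH7 are near-identical neighbours, and the cardiac, skeletal and smooth muscle actins resemble each other closely, so how reads were shared within each group bears on these values and was not tested.

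Low purity well 1 stood apart from the other low purity wells. The 20 sarcomere genes summed to 7496 TPM in it and to 11601 and 10711 TPM in low purity wells 2 and 3, against 21496, 21463 and 19468 TPM in high purity. The same well held the most fibroblast and stromal RNA, described below. Without it, 8 sarcomere genes in place of 13 were called higher in high purity, with TNNI3, TNNC1, MYL3, MYOM1 and TCAP under the fold threshold.

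**Figure D1:**
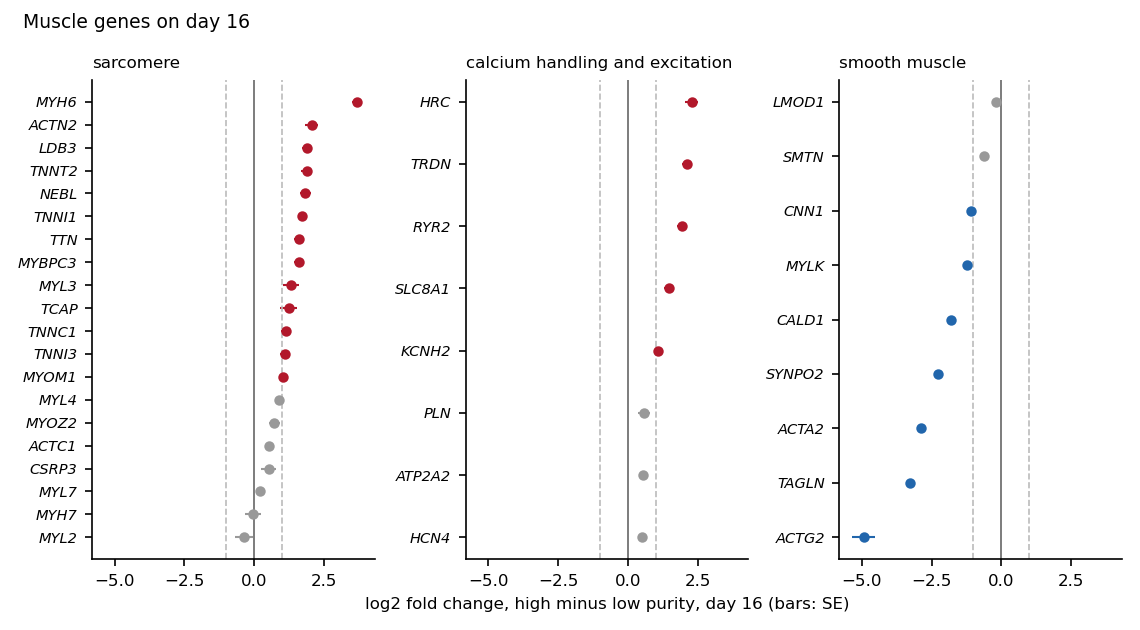
Log2 fold change (high minus low purity, x axis) with its standard error for tested genes of the sarcomere and smooth muscle lists and for the calcium handling genes named in the text, 3 wells against 3. Red points were called higher in high purity, blue points higher in low purity and grey points were not called; MYH6 at 3.69 and ACTG2 at -4.94 are the ends of the range.

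Smooth muscle genes ran the other way. Of 10 genes, 9 were tested, 7 were called higher in low purity and 0 higher in high purity, with a median log2 fold change of -1.81. Their sum was 379.8 to 434 TPM in the high purity wells and 2021 to 2186 TPM in the low purity wells. ACTA2, the alpha-actin of smooth muscle and of activated fibroblasts (chromosome 10, 88935074 to 88991337), was at 76.0, 77.3 and 69.7 TPM in high purity and at 722, 608 and 602 TPM in low purity (-2.88 ± 0.09, limma adjusted p 4.58e-06). TAGLN, the actin-binding protein transgelin, was at 25.1, 32.5 and 26.9 TPM against 319, 337 and 327 TPM (-3.29 ± 0.07, limma adjusted p 1.36e-06). The widest gap was that of ACTG2, the gamma-actin of visceral smooth muscle on chromosome 2 (73893008 to 73919865), at 9.42, 2.51 and 6.28 TPM against 241, 209 and 232 TPM (-4.94 ± 0.40, limma adjusted p 0.000146). SYNPO2 (-2.28), CALD1 (-1.81), MYLK (-1.22) and CNN1 (-1.08), which bind actin or phosphorylate myosin light chain, were the other calls. MYH11, the myosin of mature smooth muscle, was listed at 0 in all 6 wells. It was also at 0 in each of the 56 multi-omic libraries and shares its locus with NDE1, so its 0 may be a failed estimate. Pericyte genes, which mark the cells around capillaries, gave 0 calls among 5 tested of 7, with RGS5 at -0.68 and NOTCH3 at -0.75. With 9.76% of all genes tested called higher in low purity, 0 of 5 tells little. Their median was -0.68, and their sum was 63.9 to 77.3 TPM in high and 112 to 129 TPM in low purity.

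The promoters of 4 actin and myosin genes that went different ways are shown here, to set the muscle genes side by side at the level of their sequence. A CArG box is the binding site of serum response factor, a regulator of actin genes in all muscle types. Each line gives the 250 bases before the gene's start from RefSeq (GRCh38.p14), 5′ to 3′ on the gene's strand, with CArG boxes (CC, then exactly 6 bases that are A or T, then GG) and TATAAA in capitals.

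ACTC1: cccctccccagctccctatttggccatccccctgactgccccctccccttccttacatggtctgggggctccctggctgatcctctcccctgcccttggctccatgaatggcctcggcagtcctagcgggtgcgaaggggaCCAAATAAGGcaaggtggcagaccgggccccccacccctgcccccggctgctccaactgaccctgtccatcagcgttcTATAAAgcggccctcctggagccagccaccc
MYL7: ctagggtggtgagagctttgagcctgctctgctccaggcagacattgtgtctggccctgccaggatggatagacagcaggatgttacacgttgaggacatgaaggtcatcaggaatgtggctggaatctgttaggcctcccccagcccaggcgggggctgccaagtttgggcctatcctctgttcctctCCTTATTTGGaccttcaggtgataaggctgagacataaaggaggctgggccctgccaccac
ACTG2: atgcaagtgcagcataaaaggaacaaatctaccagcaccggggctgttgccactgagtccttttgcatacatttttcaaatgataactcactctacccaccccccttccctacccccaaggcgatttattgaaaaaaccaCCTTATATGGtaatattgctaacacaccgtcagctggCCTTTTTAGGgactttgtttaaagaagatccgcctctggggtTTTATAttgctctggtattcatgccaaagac
MYH6: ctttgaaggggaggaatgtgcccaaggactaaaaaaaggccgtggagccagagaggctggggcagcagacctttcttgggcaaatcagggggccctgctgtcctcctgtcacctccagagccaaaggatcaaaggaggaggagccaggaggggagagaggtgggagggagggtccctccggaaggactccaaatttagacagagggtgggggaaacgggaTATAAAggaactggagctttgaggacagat

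These windows lie at chr15:34795550-34795799 on the minus strand (ACTC1), chr7:44141333-44141582 on the minus strand (MYL7), chr2:73892758-73893007 on the plus strand (ACTG2) and chr14:23408274-23408523 on the minus strand (MYH6). ACTG2, higher in low purity, had 2 CArG boxes, beginning 110 and 73 bases before the start. ACTC1 and MYL7, not called, had 1 each, beginning 109 and 61 bases before it, and MYH6, higher in high purity, had 0 in this window. TATAAA began 31 bases before the start in ACTC1 and 30 in MYH6, and lay on the other strand, 31 bases before the start, in ACTG2. Over the windows of the table, which reach 50 bases past the start, both strands were searched. A CArG box was in a window of 4 of the 13 sarcomere genes matched (ACTC1, LDB3, MYL7 and MYOM1), of 3 of the 8 smooth muscle genes matched (ACTG2, MYLK and SMTN) and of 1.6% of all 27305 genes. TATAAA was found for 2 of 13 and 3 of 8 and for 14% of all genes, and AGATAA, the core bound by GATA factors, for 5 of 13 and 2 of 8 and for 12.4%. Of the 292 genes of all lists, 198 had a window. These matches describe letters only.

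Genes that carry calcium and current in heart muscle gave 6 calls among 14 tested of 15, all higher in high purity, with a median of 0.82. RYR2, the calcium release channel of the sarcoplasmic reticulum, was at 278, 293 and 276 TPM against 66.3, 94.3 and 99.3 TPM (1.93 ± 0.15, limma adjusted p 0.000139). HRC (2.29) and TRDN (2.14), its partners in the release unit, SLC8A1 (1.48), the sodium-calcium exchanger, and KCNH2 (1.08), a potassium channel, were among the other calls. The calcium pump ATP2A2 (0.54), its inhibitor PLN (0.57) and the pacemaker channel HCN4 (0.50) were not called.

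Cardiac transcription factors gave 6 calls among 10, all higher in high purity, with a median of 1.46. NKX2-5, the homeobox factor of early heart muscle, was at 98.5, 98.0 and 103 TPM in high purity and at 19.0, 38.1 and 36.5 TPM in low purity (1.93 ± 0.26, limma adjusted p 0.00115). SMYD1 (2.05), a muscle chromatin factor, MEF2C (1.70), TBX20 (1.58), MYOCD (1.55) and HAND2 (1.37) were the other calls. GATA4, which also serves in endoderm and epicardium, was not called, at 83.4, 83.1 and 80.3 TPM against 107, 114 and 102 TPM (-0.16 ± 0.08, limma adjusted p 0.121). HAND1 (-0.70) and TBX5 (0.76) missed the fold threshold in opposite directions.

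Chamber genes gave few calls. Of 5 ventricular genes, IRX4 (2.57) and HEY2 (1.71), repressors that keep ventricular identity, were called higher in high purity, and the myosins of the list are given above. Of 9 atrial and nodal genes, TBX3 (1.06) was called higher in high purity and SHOX2, a factor of the sinus node, higher in low purity. Over all genes tested, 6.94% and 9.76% were called on these sides, so 1 call each way tells little. TBX3 ranged from 0.86 to 1.24 with 1 well left out. SHOX2 passed the filter only through the low purity wells, which fixed its direction. SHOX2 had 2 reads in the high purity wells together and 133 in the low purity wells, a ratio of 74.8 after division by the reads that make up 1 TPM in each class (95% interval 20.3 to 624, for counting error only). Among natriuretic peptide and stress genes, NPPB was at 44.1, 79.7 and 51.8 TPM against 124, 182 and 182 TPM (-1.27 ± 0.22, limma adjusted p 0.00317). ANKRD1, a stretch-responsive protein of the sarcomere that fibroblasts and smooth muscle also make, sat at the threshold (-1.00 ± 0.14, limma adjusted p 0.00116), while the actin-binding XIRP1 was higher in high purity (1.79). Energy genes of muscle gave 6 calls among 11 tested of 12, all higher in high purity, beside 6.94% of all genes tested. They were COX6A2 (2.69), myoglobin MB (2.13), creatine kinase CKM (2.05), ESRRG (1.62), PPARGC1A (1.41) and LPL (1.28). LPL passed the filter only through the high purity wells, which fixed its direction.

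**Figure D2:**
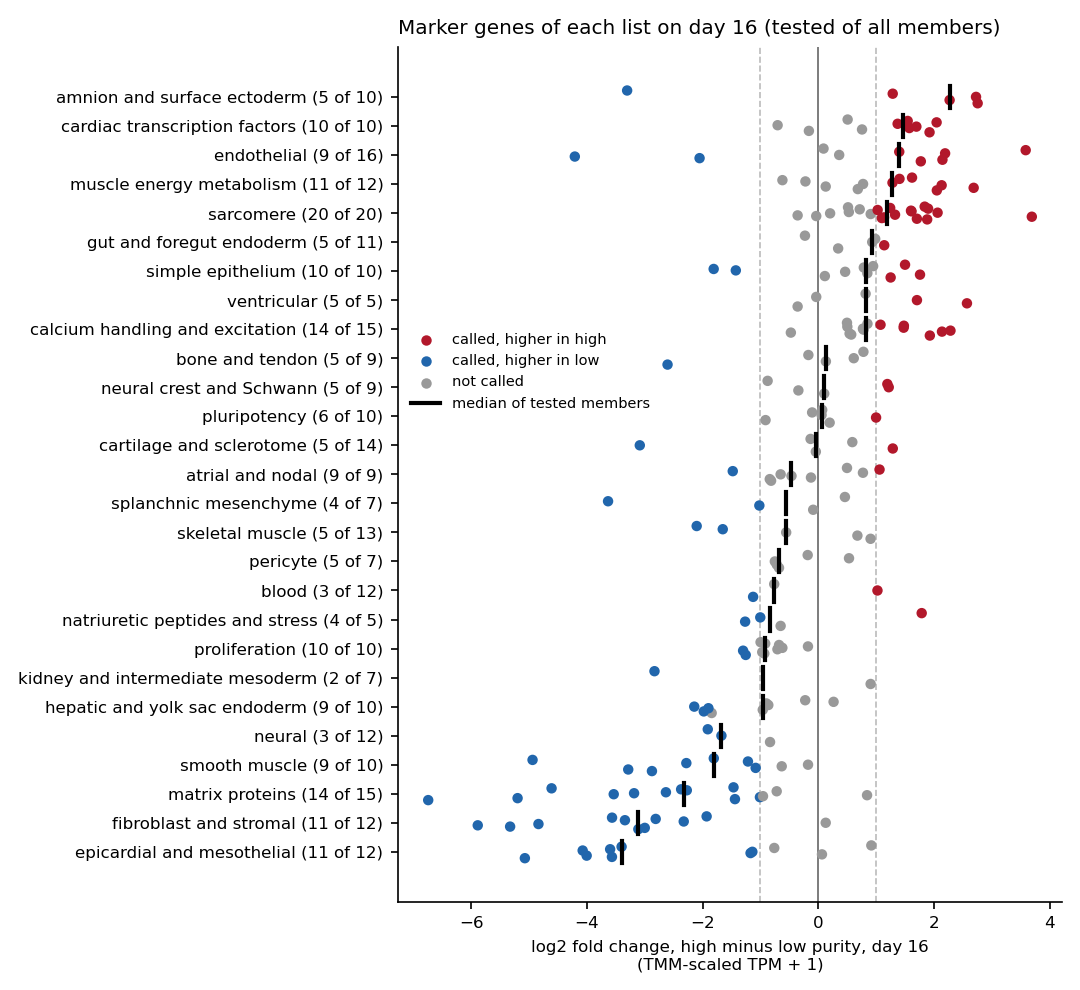
Log2 fold change (high minus low purity, x axis) of every tested member of each marker list on day 16, with tested and total members after each name, a black bar at the median of tested members and dashed lines at the fold threshold of 1. Epicardial and stromal lists lie at the bottom, with medians of -3.40 and -3.11. The cardiac transcription factor (1.46), muscle energy (1.28) and sarcomere (1.19) lists lie toward the top, with the endothelial list (1.40) among them and the amnion list (2.27) above. The atrial and nodal (-0.46) and natriuretic and stress (-0.83) lists lie below 0.

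Nearly all stromal genes that could be tested were called. Of 12 fibroblast and stromal genes, 11 were tested, 10 were called higher in low purity and 0 higher in high purity, with a median log2 fold change of -3.11. Together they made up 13313, 9914 and 9811 TPM in the low purity wells and 594, 716 and 651 TPM in the high purity wells, 16.9 times as much by the class means. COL3A1, the fibrillar collagen type III of loose connective tissue (chromosome 2, 188974373 to 189012746), was the most abundant of them at 7295, 5216 and 5195 TPM. In high purity it was at 117, 136 and 119 TPM (-5.33 ± 0.13, limma adjusted p 2.37e-06). DCN, the collagen-binding proteoglycan decorin, was at 0.346, 0.941 and 0.826 TPM in high purity and at 154, 88.0 and 97.0 TPM in low purity (-5.89 ± 0.23, limma adjusted p 9.97e-06). LUM, the related lumican, was at 19.1, 21.8 and 21.7 TPM against 814, 647 and 720 TPM (-4.84 ± 0.08, limma adjusted p 1.12e-06). COL1A1 (-3.11), COL1A2 (-3.00), THY1 (-3.57), POSTN (-3.34), PDGFRB (-2.33) and FBLN1 (-1.93) were called as well.

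Among the factors and receptors of this lineage the picture was uneven. TCF21, a regulator of epicardial descent into fibroblasts, was low everywhere but higher in low purity, at 0.120, 0.562 and 0.140 TPM against 9.14, 9.23 and 7.38 TPM (-2.81 ± 0.19, limma adjusted p 7.51e-05). PDGFRA, a receptor of cardiac mesoderm and of fibroblasts, was not called, at 77.5 to 84.6 TPM in high purity and 84.7 to 90.4 TPM in low purity (0.13 ± 0.05, limma adjusted p 0.0896). DPT, a marker of mature fibroblasts, was at 0 TPM in all 6 wells.

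Matrix proteins gave 11 calls higher in low purity and 0 higher in high purity among 14 tested of 15, with a median of -2.32. MGP, the matrix Gla protein that restrains calcification (chromosome 12, 14880864 to 14885854), had the largest fold change of the genes in the naming rule. It was at 0.341, 0.266 and 0.265 TPM in high purity and at 171, 137 and 148 TPM in low purity (-6.75 ± 0.10, limma adjusted p 1.12e-06). FMOD, fibromodulin, was at 0.942 to 0.945 TPM against 73.0 to 88.0 TPM (-5.20), and TNC, the de-adhesive tenascin C of remodelling tissue, at 9.11 to 12.7 TPM against 313 to 358 TPM (-4.61). FBN1 (-3.54), SPARC (-3.19), FBLN5 (-2.64), LOX (-2.37), EFEMP1 (-2.27), FN1 (-1.47), BGN (-1.44) and OGN (-1.01) completed the calls. OGN ranged from -1.08 to -0.93 with 1 well left out. VCAN, the versican of early cardiac jelly, ran the other way without reaching the threshold, at 821 to 880 TPM in high and 533 to 573 TPM in low purity (0.84 ± 0.06, limma adjusted p 8.4e-05).

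Epicardial and mesothelial genes were called higher in low purity in 8 of 11 tested genes of 12, with 0 higher in high purity and a median of -3.40. Over all genes tested, 9.76% were called higher in low purity. ITLN1 and MSLN, given below, passed the filter only through the low purity wells, which fixed their direction. WT1, the zinc finger factor that marks epicardium and also podocytes (chromosome 11, 32387775 to 32435539), was at 1.30, 0.964 and 1.01 TPM in high purity and at 98.8, 65.2 and 73.6 TPM in low purity (-5.08 ± 0.17, limma adjusted p 6.21e-06). TBX18 was at 6.98, 8.61 and 8.86 TPM against 150, 112 and 113 TPM (-3.57 ± 0.12, limma adjusted p 6.67e-06). BNC1, a factor of mesothelium, was at 9.23, 11.0 and 10.2 TPM against 260, 206 and 188 TPM (-4.08 ± 0.11, limma adjusted p 3.44e-06). In all 3 factors each low purity well was more than 10 times above the highest high purity well.

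The other epicardial genes add detail. ALDH1A2, which makes retinoic acid in epicardium, was at 0.618 to 1.40 TPM against 27.1 to 41.6 TPM (-4.01), and CALB2, calretinin of mesothelium, at 0.617 to 1.16 TPM against 19.4 to 23.2 TPM (-3.40). ITLN1 had 3 reads in the high purity wells together and 226 in the low purity wells, a ratio of 84.7 per TPM in the same way (95% interval 28.6 to 414). UPK3B (-1.17) and MSLN (-1.14), which line mature mesothelium, were called at 2.40 to 3.30 TPM and 1.32 to 2.84 TPM in low purity. With 1 well left out, UPK3B ranged from -1.33 to -0.94 and MSLN from -1.29 to -0.92, so either could miss the fold threshold. Not called were LRRN4 (-0.76), UPK1B (0.06) and KRT19 (0.92), the keratin of the list, at 758 to 976 TPM in high and 472 to 552 TPM in low purity. In high purity KRT19 alone outweighs the rest of this list. The summed TPM of the list was 808 to 1030 in high and 1015 to 1132 in low purity, and its wells overlapped.

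**Figure D3:**
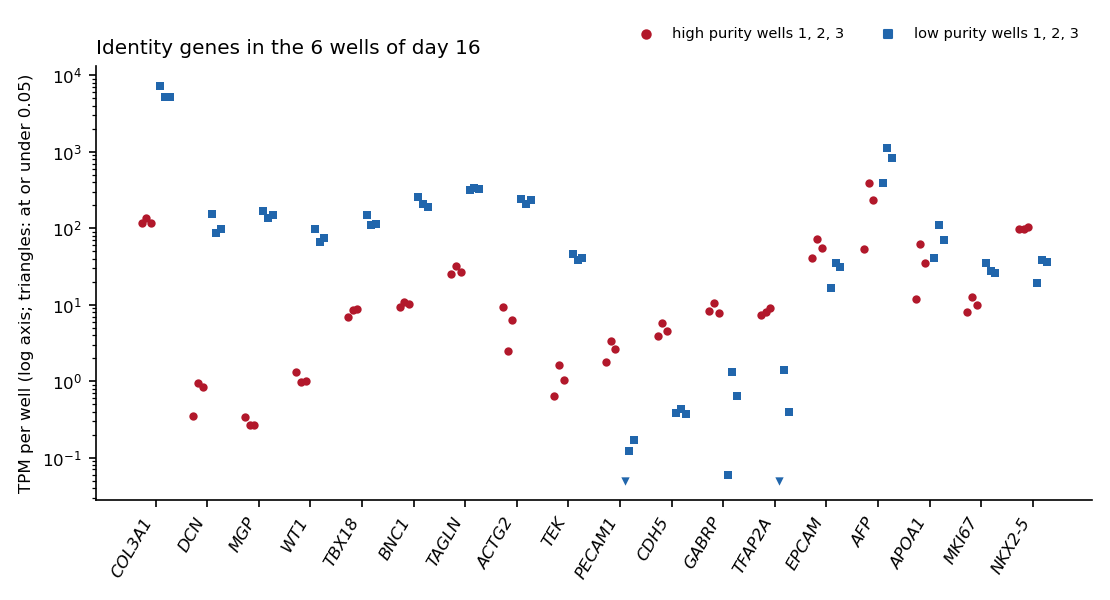
TPM of 18 identity genes in each of the 6 day 16 wells, on a log axis, with high purity wells as red circles, low purity wells as blue squares and values at or under 0.05 TPM as triangles at 0.05. COL3A1 at 5195 to 7295 TPM, WT1 at 65.2 to 98.8 TPM and TAGLN at 319 to 337 TPM in the low purity wells lie far above the high purity wells, while PECAM1, CDH5, GABRP and TFAP2A lie below them, and AFP and APOA1 spread widely within both classes.

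Endothelial genes pointed in both directions. Of 16 genes, 9 were tested, with 5 called in favour of high purity and 2 of low purity. Their sum, to which KDR gives most in low purity, was 67 to 85 TPM in high and 168 to 246 TPM in low purity. PECAM1, the junction protein CD31, was at 1.80, 3.39 and 2.60 TPM in high purity and at 0, 0.122 and 0.169 TPM in low purity (1.77 ± 0.20, limma adjusted p 0.000565). CDH5, VE-cadherin, was at 3.90, 5.79 and 4.59 TPM against 0.384, 0.437 and 0.376 TPM (2.15 ± 0.16, limma adjusted p 0.000102). ESM1 (3.59) and PLVAP (2.19) were called with them, and CD34 had 60 reads in high and 0 in low purity, at least 5.95-fold higher against a floor of 3 reads per well. PECAM1, CDH5, ESM1 and CD34 were under 1 TPM in every low purity well. They passed the filter only through the high purity wells, which fixed their direction. The 2 genes called higher in low purity encode receptors, and which cells made their RNA was not tested. TEK, the angiopoietin receptor, was at 0.645, 1.61 and 1.04 TPM in high purity and at 46.0, 38.5 and 40.5 TPM in low purity (-4.21 ± 0.17, limma adjusted p 1.04e-05). KDR, a VEGF receptor that also marks early mesoderm, was at 28.4, 29.1 and 28.8 TPM against 189, 117 and 130 TPM (-2.05 ± 0.16, limma adjusted p 0.000129). ANGPT1, the ligand of TEK, went the opposite way to it, at 52.0, 62.2 and 53.2 TPM in high purity and 7.07, 7.35 and 8.20 TPM in low purity (2.94 ± 0.08, limma adjusted p 3.27e-06). VWF, ERG and EMCN were under 1 TPM in all 6 wells.

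Epithelial genes were also divided. Of 10 simple epithelium genes, all tested, EPCAM (1.25), CLDN4 (1.76) and GRHL2 (1.50), which belong to or control epithelial junctions, were called higher in high purity. With low purity well 2 left out, 5 genes in place of 3 were called on this side. EPCAM was at 41.1, 72.3 and 55.9 TPM in high purity and at 16.5, 35.5 and 30.7 TPM in low purity (limma adjusted p 0.0125). Without low purity well 1 its log2 fold change was 0.92, under the threshold. The keratins KRT8 and KRT18 were called higher in low purity. KRT8 was at 985, 1290 and 1040 TPM against 3616, 3423 and 3277 TPM (-1.43 ± 0.09, limma adjusted p 5.1e-05), and KRT18 at 274, 314 and 273 TPM against 1184, 1180 and 1146 TPM (-1.81 ± 0.06, limma adjusted p 4.58e-06). The annotated spans of these neighbours overlap, and no source used here says whether counting used the strand. CDH1, E-cadherin, had overlapping wells at 23.4 to 47.0 TPM and 34.4 to 38.1 TPM (0.11 ± 0.19, limma adjusted p 0.646).

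Amnion and surface ectoderm genes gave 4 calls for high purity and 1 for low purity among 5 tested of 10. GABRP, a GABA receptor subunit of amnion, was at 8.37, 10.6 and 7.75 TPM in high purity and at 0.0583, 1.33 and 0.641 TPM in low purity (2.76 ± 0.28, limma adjusted p 0.000375). TFAP2A was at 7.31, 7.93 and 9.11 TPM against 0, 1.39 and 0.396 TPM (2.73 ± 0.31, limma adjusted p 0.000574), and VTCN1 (2.27) and GATA3 (1.29) were called with them. IGFBP3, a secreted binder of insulin-like growth factors that stromal cells also make, was the exception, at 199, 319 and 229 TPM against 3326, 2581 and 2607 TPM (-3.31 ± 0.15, limma adjusted p 1.52e-05). KRT5 and KRT14, keratins of surface epidermis, were at most 0.604 TPM in any well.

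Endoderm genes varied within each class. Of 10 hepatic and yolk sac genes, 9 were tested, 3 were called higher in low purity and 0 higher in high purity. Their sum was 108 to 632 TPM in high and 587 to 1583 TPM in low purity. AFP, alpha-fetoprotein, was at 53.4, 392 and 236 TPM in the high purity wells and at 392, 1112 and 840 TPM in the low purity wells. High purity well 2 and low purity well 1 were level, and limma did not call the gene (-1.84 ± 0.72, adjusted p 0.0718), while edgeR on recovered reads did (-1.61). With 1 well left out, limma gave -1.07 without high purity well 1, not called, and -2.40 without high purity well 2, called. Within both classes well 1 was the lowest for AFP, APOA1 and FGB and well 2 the highest. APOB (-2.15), ALB (-1.98) and APOA2 (-1.90) were the calls. Albumin reached only 10.8, 30.3 and 20.5 TPM in low purity and 1.44, 6.63 and 3.80 TPM in high purity. Of 11 gut and foregut genes, 5 were tested, and FOXA2 was called higher in high purity at 1.77, 4.62 and 4.11 TPM against 0.303, 2.07 and 1.43 TPM (1.14 ± 0.38, limma adjusted p 0.0454). Without low purity well 1 its log2 fold change was 0.79, and the call was lost.

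Many defining genes of other lineages were at or near 0 TPM. The skeletal muscle factors MYF5, MYF6 and PAX7 were at 0 TPM in all 6 wells and MYOD1 was at most 0.374 TPM. NEUROD1 and SOX1 were at 0 TPM, PAX6 was at most 0.0712 TPM, and HBB, HBZ and HBG1 were at 0 TPM in all wells. PTPRC, the leukocyte marker CD45, was at most 0.0836 TPM, ADIPOQ was at 0, and NANOG, a pluripotency factor, was at most 0.0867 TPM. POU5F1 was at 0 TPM too, but never passed 0.804 TPM in the 56 multi-omic libraries, which include undifferentiated cells for which it is defining, so its value tells little.

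Other genes of these lineages were present, and some were called. GATA1, an erythroid factor, was at 1.29, 2.18 and 0.669 TPM in high purity and at 0.258, 0.883 and 0.203 TPM in low purity, and did not pass the filter. By list, the calls higher in low and in high purity were 2 and 0 of 3 neural genes tested, 2 and 0 of 5 skeletal muscle genes, 1 and 0 of 5 bone and tendon genes, and 1 and 0 of 2 kidney genes. They were 2 and 0 of 4 splanchnic mesenchyme genes, 1 and 1 of 5 cartilage genes, 1 and 1 of 3 blood genes, 0 and 2 of 5 neural crest genes and 0 and 1 of 6 pluripotency genes, and no adipocyte gene of 6 passed the filter. Over all genes tested, 9.76% were called higher in low and 6.94% higher in high purity, so 1 call in so small a list tells little. The summed neural list was 7 to 10 TPM in high and 30 to 36 TPM in low purity, and the summed skeletal muscle list 70 to 84 TPM and 160 to 195 TPM. Higher in low purity were TUBB3 (-1.68), a beta-tubulin, and STMN2 (-1.91), a tubulin regulator, both best known from neurons. So was TNNT1 (-1.65), a slow skeletal troponin, at 82.3 to 122 TPM against 17.6 to 32.8 TPM. MYL1, another skeletal isoform, had 60 reads in low and 1 in high purity, a ratio of 67.5 per TPM (95% interval 11.7 to 2710). RUNX2 (-2.61), a bone factor, was at 11.9 to 16.5 TPM against 1.11 to 1.48 TPM, and COL11A1 (-3.09), a fibrillar collagen of cartilage and mesenchyme, at 100.1 to 151 TPM against 9.92 to 14.0 TPM. HLX (-3.64), a homeobox factor of splanchnic mesenchyme, was at 16.6 to 27.1 TPM against 0.152 to 0.803 TPM. NPHS1, nephrin of podocytes, had 467 reads in low and 2 in high purity, a ratio of 263 per TPM (95% interval 72.3 to 2170), whereas PAX2 and PAX8 were at most 0.242 TPM in any well. RUNX1 (-1.13) and FOXF2, with 39 reads against 2, were called on the same side. Higher in high purity were COL2A1 (1.29), the collagen of cartilage, ERBB3 (1.22), PAX3 (1.20), ITGA2B (1.02) and TDGF1 (1.00). With 1 well left out, FOXF2 ranged from -1.11 to -0.97, ITGA2B from 0.89 to 1.13 and TDGF1 from 0.9 to 1.08.

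Proliferation genes gave 2 calls higher in low purity among 10 tested and 0 higher in high purity, beside 9.76% and 6.94% of all genes tested. High and low purity wells kept apart for each of the 10, as they did for 58.5% of all genes tested. MKI67, the nuclear antigen of cycling cells, was at 8.03, 12.5 and 9.78 TPM in high purity and at 34.8, 27.4 and 26.0 TPM in low purity (-1.26 ± 0.14, limma adjusted p 0.000586). CDK1, the kinase of mitotic entry, was at 20.1, 34.3 and 24.5 TPM against 77.1, 73.4 and 74.7 TPM (-1.30 ± 0.13, limma adjusted p 0.000372). High purity well 2 was the highest of its class for both.

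Genes were also picked by rule rather than by list. The 12 protein-coding genes with the largest difference toward low purity were MGP, HPCAL4, CFI, DCN, RSPO2, SFRP2, CRISPLD2, MME, COL3A1, FMOD, SCG2 and WT1, all with a log2 fold change of -5.08 or further from 0, and 5 of them, MGP, DCN, COL3A1, FMOD and WT1, belong to the lists above. RSPO2, which raises WNT receptor levels, was at 0.291 to 0.313 TPM in high purity and at 57.7 to 96.4 TPM in low purity. SFRP2, a secreted WNT antagonist, was at 0.256 to 0.514 TPM against 47.2 to 134 TPM, and low purity well 1 was the highest. SCG2, a granin of secretory vesicles, was at 0.633 to 0.813 TPM against 58.1 to 71.4 TPM, and CFI, a complement protease, at 0.381 to 0.737 TPM against 88.9 to 149 TPM. The neuronal calcium sensor HPCAL4 was at 0.107 to 0.276 TPM against 86.0 to 152 TPM, and the peptidase MME at 1.38 to 1.56 TPM against 102 to 120 TPM. Of the 12, MGP, HPCAL4, CFI, DCN, RSPO2, SFRP2, FMOD and SCG2 were under 1 TPM in every high purity well. They passed the filter only through the low purity wells, which fixed their direction.

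Toward high purity the 12 largest were MYH6, ESM1, FBXO40, IRX1, IRX3, KLHL14, ANGPT1, ADRA2B, RTN4RL1, TCEA3, PPP1R1B and COX6A2. FBXO40, a muscle ubiquitin ligase subunit, was at 59.5, 56.3 and 64.2 TPM against 3.56, 7.26 and 7.22 TPM (3.37 ± 0.24, limma adjusted p 9.41e-05). The elongation factor TCEA3 was at 322, 337 and 288 TPM against 37.0, 69.4 and 65.4 TPM (2.71 ± 0.24, limma adjusted p 0.000188). All 3 low purity wells lay below the high purity wells for both, with low purity well 1 lowest.

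By abundance the low purity wells were led by cytoskeleton and matrix. ACTB, cytoplasmic beta-actin, was at 841, 1205 and 1023 TPM in high purity and at 6603, 6517 and 6450 TPM in low purity (-2.47 ± 0.11, limma adjusted p 1.32e-05). Next by mean TPM came COL3A1, KRT8, IGFBP3, SPARC, COL1A1 and FN1, then cytoplasmic gamma-actin ACTG1 (-2.53), and S100A10 (-2.05), ANKRD1, COL1A2 and KRT18 closed the 12. GAPDH, often used as a reference gene, was at 4113, 4811 and 4370 TPM in high purity and at 1925, 2665 and 2622 TPM in low purity (1.11 ± 0.15, limma adjusted p 0.00123), with 0.89 on unscaled TPM, under the threshold. MYH6 and TNNT2 followed it, then the mitochondrial tRNA TRNS1 (1.31), MYL3, BNIP3 (1.97), COX5B (1.16), EMC10 (1.62), HSPB7 (2.09), ENO1 (1.25), TNNC1 and SNORD116-21 (1.16). BNIP3, a mitochondrial protein of autophagy that hypoxia induces, was at 1821, 2097 and 2095 TPM against 417, 720 and 704 TPM. ACTB and GAPDH differed between the classes in opposite directions.

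Day 13 wells of the same differentiations, 2 of high and 4 of low purity, were compared with those of day 16. The high minus low difference on day 16 was tested against that on day 13 over all 12 wells, and limma called 245 of 20721 genes, 1.18% of those tested. Of these, 186 had a more negative and 59 a more positive difference on day 16. Among list members, 25 of 217 tested were called, 24 of them more negative on day 16. The fibroblast and stromal sum in low purity was 8713 to 11200 TPM on day 13 and 9811 to 13313 TPM on day 16, and in high purity it was 849 to 1060 TPM and 594 to 716 TPM. The count rests in part on single wells: without high purity well 3 of day 13, 85 genes were called, and without high purity well 1 or low purity well 2 of day 16, 162 each.

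Of 14 matrix genes tested, 4 were called with a more negative difference on day 16, as were 2 of 9 smooth muscle genes, MYLK and TAGLN. FN1, fibronectin, was at 1491 to 1943 TPM in high and 1873 to 2323 TPM in low purity on day 13, and at 563 to 984 TPM and 2116 to 2706 TPM on day 16 (difference -1.38 ± 0.22, limma adjusted p 0.0112). TNC was at 25.5 to 37.2 TPM in high purity on day 13 and at 9.11 to 12.7 TPM on day 16 (difference -1.52 ± 0.18, limma adjusted p 0.00245). FMOD (-1.47) and EFEMP1 (-1.79) were the other matrix calls, and MYLK (-1.20) and TAGLN (-1.12) were those of smooth muscle. ALDH1A2 was at 6.06 to 14.8 TPM in low purity on day 13 and at 27.1 to 41.6 TPM on day 16 (difference -2.05 ± 0.40, limma adjusted p 0.0213). TEK was likewise at 17.7 to 25.7 TPM in low purity on day 13 and at 38.5 to 46.0 TPM on day 16 (difference -1.47 ± 0.23, limma adjusted p 0.0103).

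Of 6 amnion and surface ectoderm genes tested, 4 were called with a more negative difference on day 16, namely GABRP, VTCN1, WNT6 and IGFBP3. IGFBP3, which stromal cells also make, moved further toward low purity, from -2.07 on day 13 to -3.32 on day 16 in the fit of 12 wells. WNT6 was called in 3 of the 12 fits that leave out 1 well. GABRP was at 37.3 to 52.6 TPM on day 13 and at 7.75 to 10.6 TPM on day 16 in high purity (difference -2.45 ± 0.42, limma adjusted p 0.0131). VTCN1 was at 23.8 to 28.2 TPM and then at 4.79 to 5.59 TPM (difference -2.33 ± 0.33, limma adjusted p 0.00578), and LPL, a lipase of the muscle energy list, at 19.1 to 30.2 TPM and then at 1.60 to 2.44 TPM (difference -3.23 ± 0.29, limma adjusted p 0.000807). The transport protein TTR was at 80.7 to 100.4 TPM in high purity on day 13 and at 6.15 to 14.9 TPM on day 16 (difference -2.30 ± 0.41, limma adjusted p 0.015). POSTN, periostin, was the only list member called with a more positive difference, as it was at 7.81 to 9.21 TPM in high purity on day 13 and at 18.8 to 19.8 TPM on day 16 (difference 1.08 ± 0.16, limma adjusted p 0.00738).

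**Figure D4:**
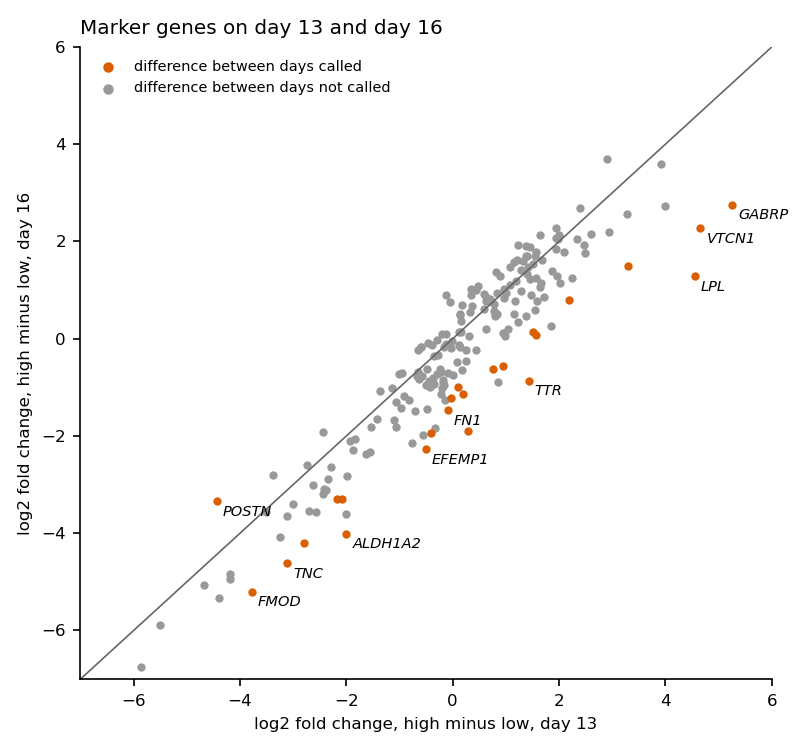
Log2 fold change (high minus low purity) of list members tested on day 16, on day 13 (x axis) and on day 16 (y axis), with the line of equal values. Orange points are the genes whose difference between the days was called, and all of those except POSTN lie below the line, GABRP, VTCN1 and LPL on the side of high purity and TNC and FMOD on the side of low purity.

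The earlier days place the endpoint on a time course. The fibroblast and stromal sum was 261 to 287 TPM in high and 222 to 242 TPM in low purity on day 0, with every high purity well above the low purity wells, and on day 4 it was 455 to 648 TPM and 1580 to 1633 TPM. In low purity its median was larger on each later sampling day, from 1596 TPM on day 4 to 9914 TPM on day 16, and in high purity the median lay between 570.0 and 1022 TPM from day 4 on. Smooth muscle RNA peaked in high purity on day 8, at a median of 1112 TPM, and was at 393 TPM on day 16, while in low purity its median was 2053 TPM on day 16. No test was made across these days.

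**Figure D5:**
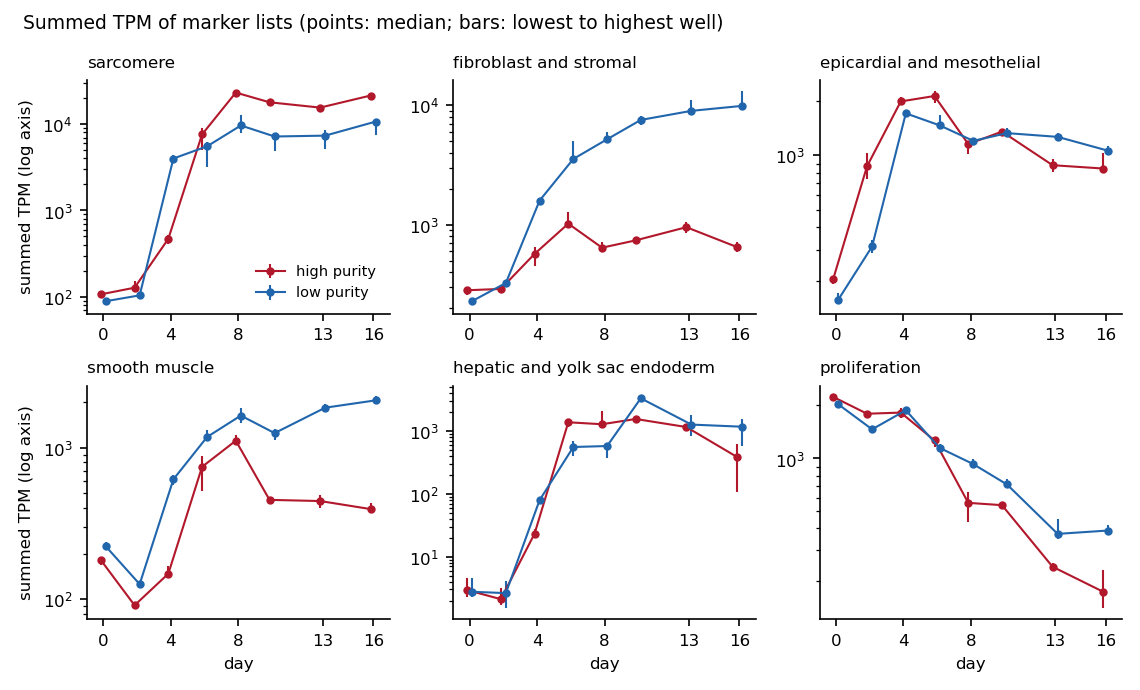
Summed TPM of 6 marker lists (log axis) by day for the high (red) and low (blue) purity differentiation, with points at the median over wells and bars from the lowest to the highest well. The stromal sum of low purity reached 9811 to 13313 TPM on day 16 against 594 to 716 TPM in high purity. The summed epicardial list, to which KRT19 gives most in high purity, was at 1015 to 1132 TPM in low and 808 to 1030 TPM in high purity.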

How the data were processed

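Poly(A) RNA of 6 wells, 3 per class, was sequenced from stranded mRNA libraries, per the labels' protocols. The submitters' processing notes name STAR 2.5.3a, featureCounts 2.0.3 and the build hg38; how TPM was computed, the annotation and the strand setting are not given in the sources used here. The values used were the TPM per gene that the authors deposited for 43388 genes. The authors' deposited count table of the same experiment was not used for levels, because 0 of its 6 day 16 columns matched the reads recovered from the equally named TPM column. Reads were recovered from TPM with gene lengths solved from the deposited counts and TPM of the RNA-only experiment, for 37194 genes. Every recovered value was whole within 0.05 of a read, and the other 6194 genes held at most 0.247% of TPM in a day 16 well.

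TPM was scaled by TMM (edgeR 4.0.16) and log2(TPM + 1) was fitted with limma 3.58.1 with trend, in R 4.3.3, over the 6 wells and genes with at least 1 TPM in 3 of them, with Benjamini-Hochberg adjustment over all genes tested. The day 13 comparison used 12 wells and an interaction contrast. Alternatives were no scaling, RLE scaling, a pseudocount of 0.1, no filter, a filter of 5 TPM, no fold threshold, a fit of all 56 multi-omic libraries, the well number as a block, each well left out, and edgeR or DESeq2 1.42.0 on recovered reads. Well numbers do not pair the wells, which come from different differentiations, so no block was used.

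Named genes were all list members, the 12 protein-coding genes with the largest called difference per direction among those with at least 10 TPM in the higher class and wells that do not overlap, the 12 most abundant called genes per direction, and, for the day 13 comparison, called list members and the 5 largest differences per direction. The members, lists and rules were chosen with earlier results of these data known. Fold changes on log2(TPM + 1) understate the change of genes near 0. A tested gene under 1 TPM in every well of 1 class passed the filter only through the other class, which fixed its direction. Among the list members named above this covers DCN, TCF21, MGP, FMOD, HLX, ITLN1, MSLN, SHOX2 and LPL, among others. Genes with at most 3 reads in a class are given as a ratio of reads, each class's divided by its reads per TPM of that gene, or against a floor of 3 reads per well, and 95% intervals of such ratios are exact and cover counting error only. Some list members count in the totals of their lists and are not reported here by name.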

Additional observations from a re-analysis of the deposited data

Results flagged for a closer look

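The high minus low difference of 245 genes was another on day 16 than on day 13 by the test of the difference itself (limma, 12 wells). All values below are day 16 minus day 13 on the log2 scale. Of the list members, matrix and stromal genes had the lower difference on day 16 for EFEMP1 (-1.79), FBLN1 (-1.54), TNC (-1.52), FMOD (-1.47), FN1 (-1.38) and IGFBP3 (-1.24), and POSTN (1.08) had the higher one. The bone matrix gene SPP1 (-1.39) and the contractile genes ACTA1 (-1.52), MYLK (-1.20) and TAGLN (-1.12) had the lower difference, as did the stress gene ANKRD1 (-1.11). ALDH1A2 (-2.05) of epicardium, TEK (-1.47) of endothelium and RUNX1 (-1.35) of blood were likewise lower. So were the endoderm genes TTR (-2.30) and APOA2 (-2.20), the epithelial genes GRHL2 (-1.76) and ESRP1 (-1.40), and the amnion and surface genes GABRP (-2.45), VTCN1 (-2.33) and WNT6 (-1.79). The lipid and fuel genes LPL (-3.23) and PDK4 (-1.39) and the stem cell gene L1TD1 (-1.50) were the remaining ones. Of these 25, 7 were called in each of the 12 fits that leave out 1 well, namely EFEMP1, FMOD, L1TD1, LPL, MYLK, TNC and VTCN1.

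Among genes with a mean of at least 10 TPM in 1 of the 4 groups, the 5 largest called differences in each direction were in small RNAs. MIR4304 (-5.09), MIR4691 (-5.01), MIR708 (-4.73), SNORD14B (-4.24) and SNORA74D (-3.37) lay at the negative end, and MIR5009 (4.61) and SNORD4B (3.79) at the positive end, none with more than 13 reads in any well. MIR4304 and SNORA74D were called in all 12 of those fits, SNORD4B in 11 and MIR4691, MIR708, SNORD14B and MIR5009 in 2 to 4 of them. The mitochondrial transfer RNAs TRNA (2.50), TRNH (1.90) and TRNS1 (1.60) had the higher difference on day 16, with up to 901 reads in a well. These values describe reads over the annotated spans of the small RNAs, not their mature forms.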

How the results depend on the processing

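The 3118 calls of day 16 numbered 2162 to 3996 in the 9 alternatives that kept all 6 wells and the fold threshold of 1, and 2857 to 3216 with 1 well left out. Without the threshold they numbered 9004, with 4382 higher in high and 4622 higher in low purity. The comparison with day 13 moved more. Its 245 calls (59 positive, 186 negative) became 163 (29 positive) without scaling and 841 (329 and 512) without the threshold. With 1 well left out they ranged from 85 to 242, the positive ones from 20 to 63 and the negative ones from 65 to 196. Sarcomere genes called higher in high purity ranged from 8 to 14 with 1 well left out, and simple epithelium genes from 2 to 5. With the well number as a block, the day 16 calls numbered 3134, and those of the comparison with day 13 numbered 144 (28 and 116). The numbers do not pair the wells: deviations of same-numbered wells correlated at 0.021, 0 and -0.021. For single genes, 2938 of 3018 values kept direction and call, 48 lost the call, 21 gained it and 11 changed sign. All 11 sign changes were of genes that were not called and lay near 0: CDH1 (-0.10 unscaled, -0.09 to 0.31 with 1 well left out), FGB (-0.28 to 0.94 with 1 well left out), MYH7 (-0.38 to 0.22), MYL7 (-0.01 unscaled), PDGFRA (-0.09 unscaled) and UPK1B (-0.09 unscaled, -0.07 to 0.17). The cause of these shifts was not tested. Depth limits 159 of the day 16 calls, whose wells held 10 reads or fewer each.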

Other observations

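Whole gene families were taken by their symbols after values of day 16 had been seen, so their counts are a description, beside the 9.76% of all genes tested that were called higher in low purity and the 6.94% called higher in high purity. HOX genes, which give cells their position along the body axis, were present in 39 symbols, of which 18 passed the filter and 21 did not, and 11 were at 0 TPM in all 6 wells. Of the 18, 14 were under 1 TPM in every high purity well and passed only through the low purity wells, which fixed their direction. The other 4, HOXB2, HOXB3, HOXB4 and HOXB5, were called higher in low purity. HOXC8, on chromosome 12, had 0 reads in high purity and was at 48.6, 28.9 and 23.9 TPM in low purity, at least 126-fold higher against a floor of 3 reads per well. HOXB9 likewise had 0 reads against 5.997 to 9.48 TPM, at least 31.6-fold higher. HOXB4 and HOXB2, from the other end of their cluster, were already at 36.1 to 43.6 TPM and 20.6 to 27.3 TPM in high purity and at 95.5 to 118 TPM and 56.2 to 61.5 TPM in low purity (-1.14 and -1.13). Iroquois genes, another homeobox family, went the opposite way, with 5 of 6 tested and all 5 called higher in high purity. IRX3 was at 119, 112 and 106 TPM against 13.2, 11.3 and 12.8 TPM (3.29), and IRX1 (3.34), IRX4 (2.57), IRX5 (2.29) and IRX2 (1.78) followed.

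Collagen chains were mostly higher in low purity. Of 44 chains, 32 were tested, 19 were called higher in low purity and 3 higher in high purity. COL6A3 was at 2.11, 4.86 and 3.56 TPM against 177, 142 and 129 TPM (-4.90), and COL5A2 (-3.37) and COL5A1 (-2.12) joined the type I and III chains. COL23A1 (1.79), COL7A1 (1.66) and COL2A1 (1.29) were the 3 called the other way. Enzymes of glycolysis were higher in high purity in 11 of 19, with 0 higher in low purity: HK2 (1.82), GPI (1.80), LDHA (1.55) and PKM (1.43) were called and PGK1 (0.85) was not. Among secreted modulators of WNT, RSPO1 was at 0.831 to 1.16 TPM against 40.0 to 63.7 TPM (-4.46) and SFRP5 at 11.1 to 14.7 TPM against 109.7 to 158 TPM (-3.00), whereas RSPO3 (0.44) and SFRP1 (0.67) were not called. Of the binding proteins of insulin-like growth factors, IGFBP5 (-2.08) was called beside IGFBP3.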
